A study of Mus musculus with 6 samples.

Results

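The 39 genes of the 4 mouse Hox clusters were followed across 6 osteosarcomas. They were taken as every gene whose symbol is Hox, a cluster letter from a to d and a paralogue number, with antisense transcripts left out, and make up 39 of the 56196 genes counted. The Hoxa cluster on chromosome 6 has 11 of them, Hoxb on chromosome 11 has 10, Hoxc on chromosome 15 has 9 and Hoxd on chromosome 2 has 9. The study sequenced polyA RNA of osteosarcomas, malignant tumours of bone-forming cells, from genetically engineered mice, and its design sets tumours that lack Skp2 against tumours that keep it. Skp2 is the substrate-binding part of a ubiquitin ligase that targets p27 and other brakes on the cell cycle for destruction. TKO tumours (triple knockout, 3 samples) have the genotype Osx1-Cre, Rb1 lox/lox, p53 lox/lox and SKP2-/-. DKO tumours (double knockout, 3 samples) have Osx1-Cre, Rb1 lox/lox and p53 lox/lox with Skp2 intact. Both groups therefore carry the Cre driven by Osx1 (Sp7), a gene of osteoblast precursors, which removes Rb1 and p53 in cells that have used that promoter. Replicate 1 of each group is labelled male, and replicates 2 and 3 of each group are labelled female. Neither the age of the mice nor the bone each tumour grew in is given in the sources used here. By sex, replicate 1 of each group came from another mouse than replicates 2 and 3. The sample titles carry a different code for each tumour, but the labels do not say that the codes name mice. Whether replicates 2 and 3 of a group came from different mice is thus not stated. The p-values rest on how far these samples spread, which may be technical in part.

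Hox genes encode homeodomain transcription factors that tell cells where along the body they are. In each cluster the genes lie in the order in which they are used, with low paralogue numbers switched on early and towards the head, and high numbers later and towards the tail and the tips of the limbs. Bone and its progenitors keep much of this code into adult life, so that the set of Hox genes in use differs between skeletal sites, while the neural crest that forms the face and much of the skull develops without Hox expression. Pbx and Meis proteins bind DNA with Hox proteins, retinoic acid and Cdx factors help to switch the clusters on, and Polycomb complexes keep the unused end of a cluster silent.

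Depth was 17063231 to 22488819 counts in genes per library. Levels are CPM, counts scaled to a common library size with TMM factors. Skp2 had 0 counts in each of the 3 TKO tumours, against 20, 64 and 46 counts in the DKO tumours, as the labels say. Counts in Rb1 and Trp53 check no deletion here, since exons are not told apart. Among osteoblast markers, Runx2 was present in every tumour, at 58.2 to 240.6 CPM in TKO and 83.0 to 96.8 CPM in DKO. Sp7, the gene whose promoter drives the Cre, had 0, 206 and 432 CPM in TKO 1, 2 and 3, against 7.94, 0 and 0.414 CPM in DKO 1, 2 and 3. Ibsp and Bglap, matrix genes of mature osteoblasts, were likewise at or near 0 in TKO 1 and at most 22.8 CPM in the DKO tumours. The 12 osteoblast markers summed to 4763, 65654 and 89694 CPM in TKO and 18959 to 29615 CPM in DKO, and 2 of the 10 tested, Dmp1 and Phex, were called higher in TKO. TKO 1 stood apart from the other TKO tumours over all genes (Pearson r of 0.805 and 0.83 with them, against 0.915 between TKO 2 and TKO 3, and 0.933 to 0.954 within DKO; log2 CPM, across genes, which are not independent). Markers of other cells moved with the groups. The 12 leukocyte markers summed to 1496 to 3820 CPM in TKO and 8.88 to 128 CPM in DKO, with C1qa, C1qb and C1qc at 0 in DKO, and 11 of the 12 were called higher in TKO. The 9 skeletal muscle markers summed to 442 to 9556 CPM in TKO and 3.62 to 10.9 CPM in DKO, the 8 endothelial markers to 191 to 1025 CPM in TKO and 13.3 to 171 CPM in DKO, and the 6 erythroid markers to 88.5 to 1163 CPM in TKO and 0.496 to 1.27 CPM in DKO. The 7 pericyte and smooth muscle markers summed to 523 to 1962 CPM in TKO and 122 to 488 CPM in DKO, the 5 chondrocyte markers to 97.4 to 215 CPM in TKO and 5.95 to 26.7 CPM in DKO, the 6 skin and epithelial markers to 14.3 to 573 CPM in TKO and 0.0992 to 2.95 CPM in DKO, and the 6 fibroblast markers to 1182 to 21379 CPM in TKO and 6917 to 16836 CPM in DKO. Some DKO sums rest on single genes that were not called. Cd68 had 121 of the 128 leukocyte CPM in DKO 2 and 90.4 CPM in DKO 3. Eng had 162 of the 171 endothelial CPM in DKO 2. Pdgfrb and Cspg4 had 366 and 102 of the 488 pericyte and smooth muscle CPM in DKO 1. Sums of TKO 1 also rest on genes that were not called. Krt18 had 541 of its 573 skin and epithelial CPM, against 1.68 and 0.305 CPM in TKO 2 and TKO 3. Sox9 had 108 of the 110 chondrocyte CPM in TKO 1, where Col2a1 and Acan were at 0. Spp1 had 2901 of the 4763 osteoblast CPM in TKO 1. The part of these other cells in the Hox levels was not tested. In bulk tumours, fewer cells of a type and less RNA per cell cannot be told apart.

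Every tumour expressed Hox genes, and the sums of single clusters were further apart than the totals. The 39 genes summed to 292, 278 and 289 CPM in TKO 1, 2 and 3, against 209, 263 and 269 CPM in DKO 1, 2 and 3, a mean of 286 ± 7.50 CPM in TKO and 247 ± 32.9 CPM in DKO (SD, n = 3 each). The 3 TKO sums lay above the 3 DKO sums, with TKO 2 and DKO 3 close to each other. By library totals, without TMM factors, the groups overlapped, with 271 CPM in TKO 2 and 276 CPM in DKO 2. These counts leave out reads that lie on genes of both strands. With the 2 strand columns summed, which gives such reads to both genes, the 39 genes had 358, 343 and 405 CPM in TKO, against 229, 311 and 319 CPM in DKO, and TKO again lay above DKO. The Hoxa cluster summed to 238, 117 and 138 CPM in TKO, against 108, 54.1 and 20.1 CPM in DKO, so that the groups did not overlap. The Hoxb cluster ran the other way, with 11.3, 22.4 and 42.3 CPM in TKO, against 6.10, 81.8 and 109 CPM in DKO. Here the groups overlapped, because DKO 1 was the lowest of the 6 tumours. The difference rests on which reads are counted: with the strand columns summed, Hoxb had 40.4, 63.5 and 146 CPM in TKO, against 7.34, 123 and 153 CPM in DKO, a mean of 83.4 ± 55.7 CPM in TKO and 94.5 ± 77.0 CPM in DKO (SD, n = 3 each). The Hoxc cluster summed to 1.04, 122 and 104 CPM in TKO, against 64.2, 66.4 and 55.0 CPM in DKO. TKO 1 had only 25 counts over all 9 Hoxc genes, while TKO 2 and TKO 3 were above every DKO tumour. The Hoxd cluster summed to 41.9, 15.5 and 4.62 CPM in TKO, against 30.9, 60.3 and 84.1 CPM in DKO, with TKO 1 above DKO 1 and the other TKO tumours below all of DKO. As a share of the Hox counts, Hoxa took 81.4, 42.3 and 47.7% in TKO and 51.5, 20.6 and 7.49% in DKO. No p-value is given for these sums, since the genes were chosen as a family.

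**Figure D1:**
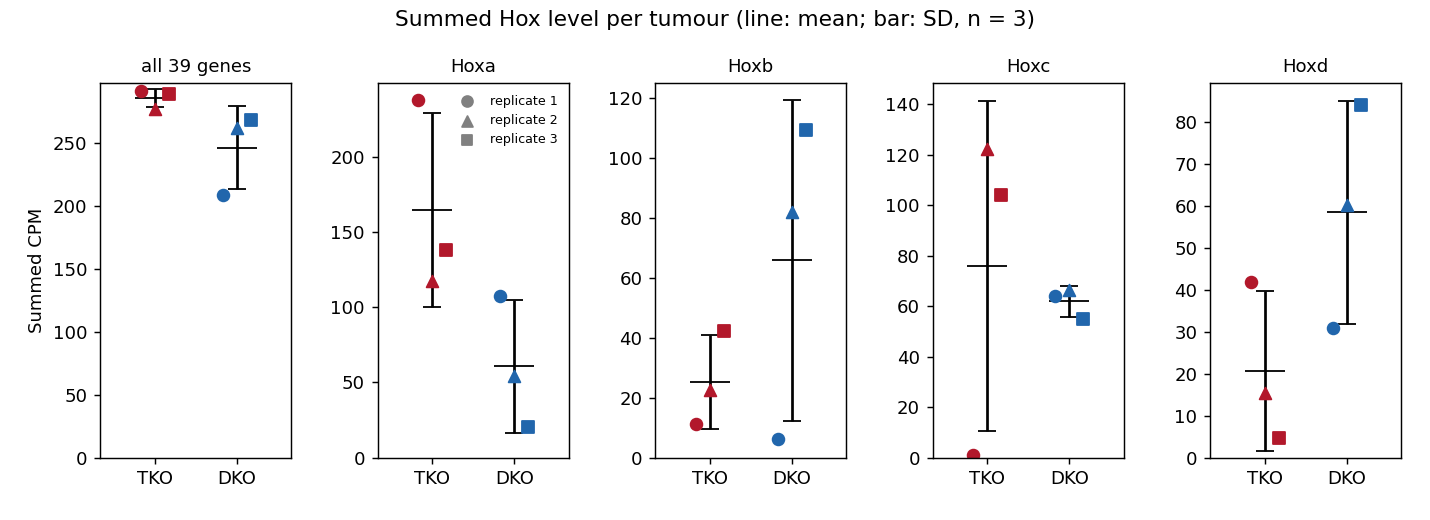
Summed CPM of all 39 Hox genes and of each cluster (vertical axes, linear, each with its own range) in TKO and DKO tumours; each point is 1 tumour, its shape is the replicate number, the line is the mean and the bar the SD of 3 tumours. The totals of TKO lie between 278 and 292 CPM, while the Hoxc sum is 1.04 CPM in TKO 1 and 122 CPM in TKO 2.

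The tumours differed in which genes of the family they used. At or above 1 CPM were 14, 29 and 25 of the 39 genes in TKO 1, 2 and 3, against 22, 26 and 26 in DKO 1, 2 and 3. Genes that reached 1 CPM in all 6 tumours included Hoxa3, Hoxa4, Hoxa5, Hoxa6, Hoxa7, Hoxb4 and Hoxd8, which are members of low or middle number. The 6 that reached it in no tumour were Hoxb1, Hoxb13, Hoxd1, Hoxd3, Hoxd12 and Hoxd13, which lie towards the ends of their clusters. Hoxb1, which patterns the hindbrain, had 0 counts in every tumour. Hoxd12 and Hoxd13, the Hoxd genes of the digits, had at most 7 and 18 counts in a tumour, all from DKO for Hoxd12. The highest paralogue number at or above 1 CPM was 10, 13 and 10 in Hoxa of TKO, against 13, 10 and 7 in DKO. In Hoxd it was 9, 9 and 8 in TKO, against 9, 10 and 11 in DKO. In Hoxb it was 4, 9 and 8 in TKO and 9 in each DKO tumour, and in Hoxc it was 13 in every tumour except TKO 1, where no Hoxc gene reached 1 CPM. These end points move with the limit: at 0.5 CPM the highest number was 10, 13 and 11 in Hoxa of TKO, against 13, 10 and 10 in DKO, and 9 in Hoxd of each TKO tumour, against 11, 13 and 13 in DKO.

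**Figure D2:**
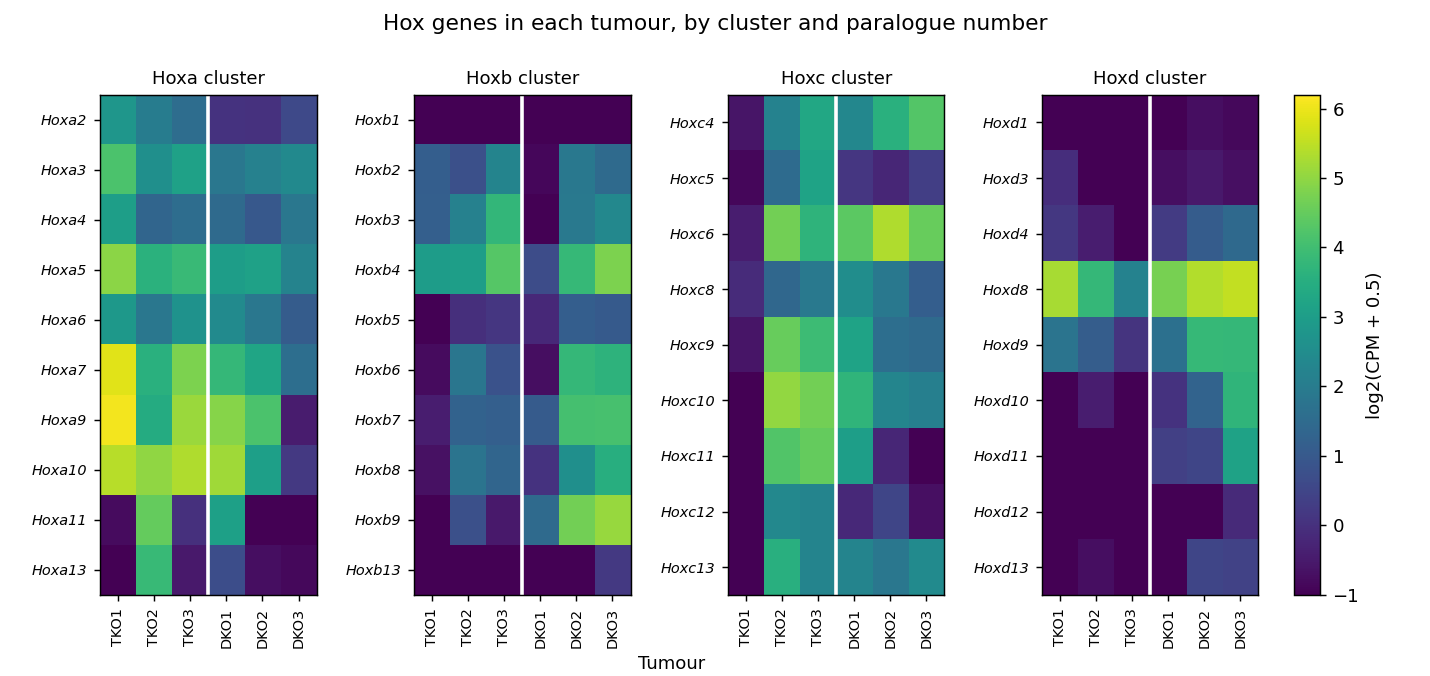
Level of the Hox genes reported, as log2(CPM + 0.5) in colour, in the 3 TKO tumours (left of the white line) and the 3 DKO tumours (right), with genes down the page by paralogue number in 1 panel per cluster. The Hoxc panel is dark throughout for TKO 1, and the lower rows of the Hoxd panel are brightest in DKO 3.

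In the Hoxa cluster, which gave the largest sum of the 4 clusters in TKO 1, TKO 3 and DKO 1, the tumours stopped at different points along the row of genes. Hoxa7, which patterns the trunk skeleton, had 58.3, 11.4 and 26.8 CPM in TKO, against 13.4, 8.96 and 2.54 CPM in DKO. Hoxa10, which helps to form the lumbar spine and the upper limb segment and is known to act in osteoblasts, had 42.4, 31.9 and 40.0 CPM in TKO, against 35.6, 7.84 and 0.651 CPM in DKO. Per kilobase of exon that no other annotated gene covers, these were the highest Hoxa genes of TKO, at 14.05 ± 10.4 CPM per kb for Hoxa7 and 11.6 ± 1.69 CPM per kb for Hoxa10 (SD, n = 3). In DKO they were Hoxa10 at 4.49 ± 5.64 CPM per kb and Hoxa6, a trunk gene, at 3.71 ± 1.90 CPM per kb (SD, n = 3). Hoxa10 was thus even across TKO and spread over a wide range in DKO, where DKO 1 lay inside the TKO range. Hoxa6 had 6.69, 3.12 and 5.84 CPM in TKO, against 4.96, 3.11 and 1.66 CPM in DKO.

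Past Hoxa10 came a sharp step. Hoxa11, a gene of the forearm and lower leg bones whose gene body ends 1251 bases from that of Hoxa10, had 2, 460 and 10 counts in TKO 1, 2 and 3, beside 1020, 663 and 788 counts of Hoxa10. In DKO 1, 2 and 3 it had 163, 0 and 0 counts, beside 717, 154 and 11 counts of Hoxa10. Per kilobase, the Hoxa10 to Hoxa11 ratio was 232 in TKO 1 (95% exact counting interval from 64.0) and 35.8 in TKO 3 (from 19.4), but 0.655 in TKO 2 and 2.00 in DKO 1. It was at least 23.3 in DKO 2, where Hoxa11 was at 0 and 3 counts were taken as the floor. Hoxa13, the gene of the hands and feet, followed Hoxa11, with 0, 292 and 4 counts in TKO, against 23, 2 and 1 counts in DKO. In DKO 3 the step came earlier, between Hoxa7 with 43 counts and Hoxa9 with 4 counts, whose bodies are 1245 bases apart. Its Hoxa7 to Hoxa9 ratio per kilobase was 25.8 (from 9.37), against 1.10 to 2.68 in the other 5 tumours. Hoxa11 counts rest on the 65.0% of its exon bases that Hoxa11os, a gene on the opposite strand, does not cover. With the 2 strand columns summed, which gives such reads to both genes, Hoxa11 had 3, 779 and 25 counts in TKO and 334, 0 and 0 counts in DKO, so the order of the tumours was the same.

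The promoters on each side of this step are shown because the tumours divide there. Both are from RefSeq (GRCm38.p6), on the minus strand, from 250 bases before to 50 bases after the start of a transcript, with CG dinucleotides in capitals. The Hoxa10 window shown is the one nearer to Hoxa11 and lies at chr6:52240805-52241104, and the Hoxa11 window lies at chr6:52245761-52246060. Counts per gene do not show which start of Hoxa10 the tumours used.

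Hoxa10: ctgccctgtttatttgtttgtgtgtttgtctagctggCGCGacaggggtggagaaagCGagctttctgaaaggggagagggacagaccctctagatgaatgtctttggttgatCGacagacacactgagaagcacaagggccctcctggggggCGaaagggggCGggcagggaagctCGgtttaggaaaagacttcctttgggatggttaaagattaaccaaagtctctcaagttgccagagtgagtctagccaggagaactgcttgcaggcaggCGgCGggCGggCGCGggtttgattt

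Hoxa11: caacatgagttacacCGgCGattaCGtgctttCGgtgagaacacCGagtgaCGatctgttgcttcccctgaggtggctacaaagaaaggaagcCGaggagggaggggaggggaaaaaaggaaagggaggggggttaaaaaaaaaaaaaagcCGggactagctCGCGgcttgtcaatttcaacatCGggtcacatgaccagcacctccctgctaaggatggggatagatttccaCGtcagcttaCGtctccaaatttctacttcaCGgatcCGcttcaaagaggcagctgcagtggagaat

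The Hoxa10 window shown holds 12 CG dinucleotides and the Hoxa11 window 15. The other Hoxa10 window, at chr6:52234890-52235189, holds 21. The median over the 24 Hox windows matched, which cover 22 of the 39 genes, was 14.5, against 7 over all 32851 windows in the table. The counts of the windows shown are both above the median of all windows. Methylation and chromatin were not measured here.

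**Figure D3:**
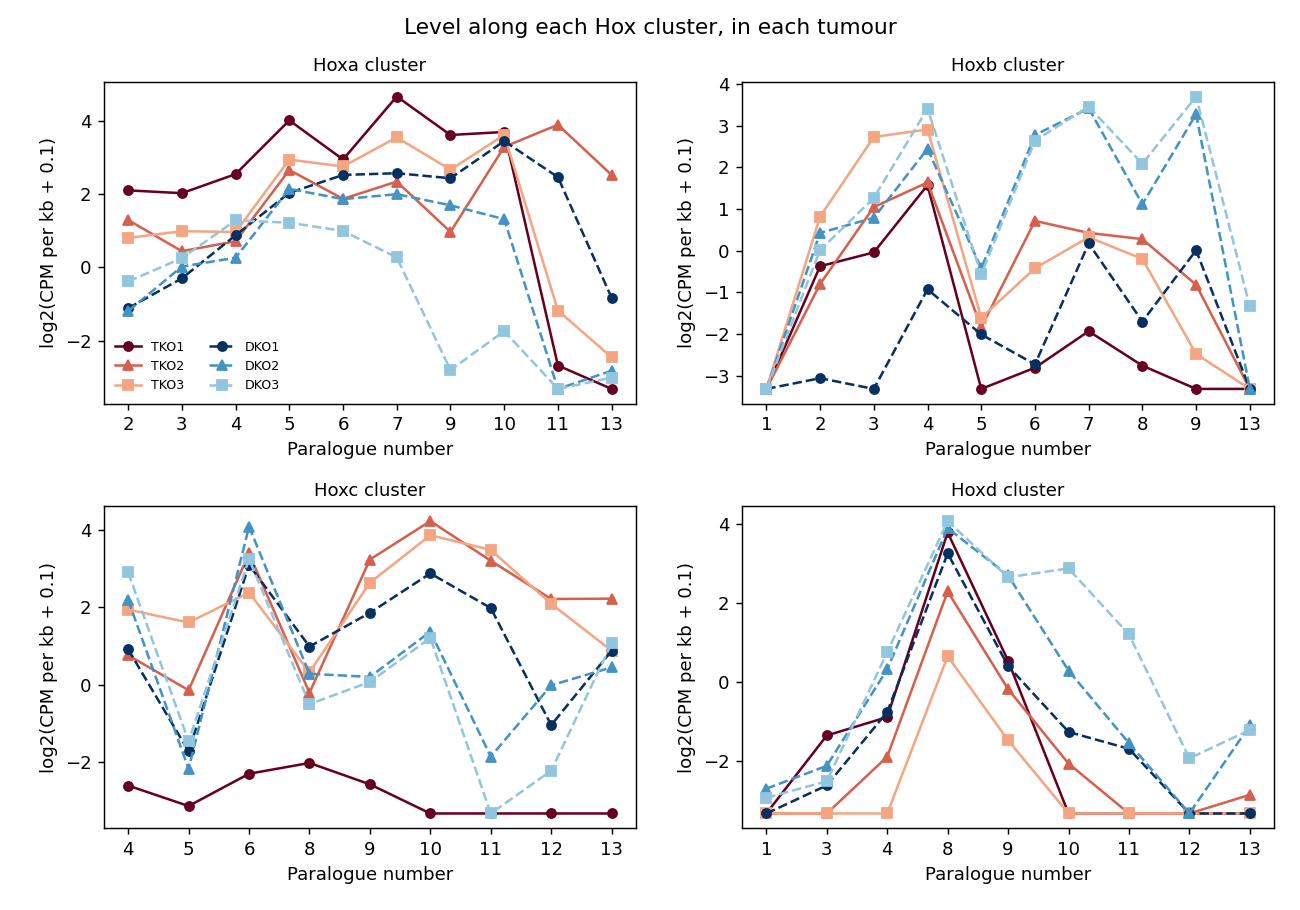
Level along each cluster as log2(CPM per kb + 0.1) (vertical axes) against paralogue number (horizontal axes), with 1 line per tumour, solid for TKO and dashed for DKO. In Hoxa, TKO 1, TKO 3 and DKO 2 drop after number 10 and DKO 3 drops after number 7, while TKO 2 and DKO 1 continue to number 11.

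The Hoxc cluster separated TKO 1 from all other tumours and, among those, TKO 2, TKO 3 and DKO 1 from DKO 2 and DKO 3 at numbers 9 to 11. Hoxc10, a gene of the lumbar region and the hindlimb, had 0, 32.2 and 25.0 CPM in TKO, against 12.6, 4.33 and 3.85 CPM in DKO. Hoxc11, which is used in the hindlimb and not in the forelimb, had 0, 18.3 and 22.3 CPM in TKO, against 7.74, 0.356 and 0 CPM in DKO. Per kilobase these were the highest Hoxc genes of TKO, at 10.9 ± 9.71 and 6.69 ± 5.88 CPM per kb (SD, n = 3). The Hoxc10 to Hoxc11 ratio per kilobase was 2.04 in TKO 2, 1.30 in TKO 3 and 1.88 in DKO 1, against 14.1 in DKO 2 (95% exact counting interval from 6.54) and at least 25.1 in DKO 3, where Hoxc11 was at 0 and the same floor was used. In DKO the highest were Hoxc6, which marks the thorax and forelimb level, at 11.5 ± 4.56 CPM per kb and Hoxc4, a neck-level gene, at 4.51 ± 2.77 CPM per kb (SD, n = 3). Hoxc6 had 0.249, 24.9 and 12.2 CPM in TKO, against 20.2, 40.3 and 22.5 CPM in DKO, and Hoxc4 had 0.166, 4.08 and 9.55 CPM in TKO, against 4.57, 11.4 and 18.8 CPM in DKO. Hoxc13, known for its role in hair and nails, had 0, 11.2 and 4.27 CPM in TKO and 4.27, 3.11 and 4.91 CPM in DKO, and so lay between 3.11 and 11.2 CPM in all tumours but TKO 1. Hoxc12 had 0, 4.66 and 4.27 CPM in TKO, against 0.397, 0.916 and 0.118 CPM in DKO, so that DKO 1 was low for it. Hotair, a noncoding RNA transcribed between Hoxc11 and Hoxc12, had 0, 60 and 31 counts in TKO, against 20, 0 and 0 counts in DKO. It was thus found in the same 3 tumours as Hoxc11 at 7.74 CPM or more.

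The Hoxb genes from number 6 to 9 were strongest in DKO 2 and DKO 3. Hoxb9, a gene of the thoracic skeleton and mammary gland, had 0, 1.20 and 0.203 CPM in TKO, against 2.33, 24.7 and 33.3 CPM in DKO, so all 3 TKO tumours were below all 3 DKO tumours. Hoxb7, which is used in the trunk, had 0.249, 1.92 and 1.78 CPM in TKO, against 1.59, 16.4 and 16.9 CPM in DKO, with DKO 1 inside the TKO range. Per kilobase these were the highest Hoxb genes of DKO, at 7.82 ± 6.21 and 7.52 ± 5.63 CPM per kb (SD, n = 3). In TKO the highest were Hoxb4, which also acts in blood stem cells, at 4.44 ± 2.59 CPM per kb and Hoxb3, a hindbrain and neck gene, at 3.13 ± 3.01 CPM per kb (SD, n = 3). Hoxb4 had 7.39, 7.74 and 19.1 CPM in TKO, against 1.09, 13.7 and 27.1 CPM in DKO. Hoxb3 had 1.74, 3.94 and 13.1 CPM in TKO, against 0, 3.26 and 4.61 CPM in DKO. The deposited counts leave out reads that lie on genes of both strands, and Hoxb2 and Hoxb3 overlap Hoxb3os, so their levels may be too low. With the strand columns summed, Hoxb2 had 445, 519 and 1381 counts in TKO and 17, 475 and 409 counts in DKO, which over all tumours is 12.9 times the deposited count, and Hoxb3 had 339, 437 and 999 counts in TKO and 9, 447 and 439 counts in DKO, 5.10 times the deposited count. These reads cannot be told apart from those of Hoxb3os, which had 24, 8 and 77 counts in TKO and 0, 10 and 33 counts in DKO. DKO 1 was the lowest tumour for Hoxb2, Hoxb3 and Hoxb4 under either count. Of 38 members with counts, 29 changed by at most 5% when the strands were summed, and the other 9 included Hoxa3, Hoxa4, Hoxa7, Hoxa11, Hoxb2, Hoxb3, Hoxb5 and Hoxd3.

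In the Hoxd cluster, Hoxd8 led in both groups and the genes past it were low in TKO. Hoxd8, a trunk gene, had 37.9, 13.3 and 4.06 CPM in TKO, against 26.1, 40.9 and 46.3 CPM in DKO, which is 6.71 ± 6.37 CPM per kb in TKO and 13.8 ± 3.80 CPM per kb in DKO (SD, n = 3 each). Hoxd9, a gene of the lumbar spine and the upper limb segment, came next at 0.803 ± 0.550 CPM per kb in TKO and 4.63 ± 2.95 CPM per kb in DKO (SD, n = 3 each). Its levels were 2.91, 1.68 and 0.559 CPM in TKO, against 2.63, 13.7 and 13.3 CPM in DKO, with TKO 1 just above DKO 1. Hoxd10, a limb and lumbar gene, had 0, 5 and 0 counts in TKO, against 11, 38 and 211 counts in DKO. Hoxd11, which with Hoxa11 builds the forearm bones, had 0 counts in all 3 TKO tumours, against 16, 18 and 141 counts in DKO, or 0.794, 0.916 and 8.34 CPM. Taking 3 counts over the group as the floor, Hoxd11 was at least 66.4-fold lower in TKO. DKO 3, the tumour whose Hoxa genes stopped earliest, had the highest Hoxd10 and Hoxd11.

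Tested over all genes, no Hox gene passed an adjusted p of 0.05. edgeR's quasi-likelihood test called 4.89% of the 15361 genes tested higher in TKO and 2.47% lower, and 0 of the 32 Hox genes tested. That count over all genes moved with single tumours, from 1131 genes with all 6 to 2385, 475 and 331 without TKO 1, 2 and 3, and to 39, 2 and 0 without DKO 1, 2 and 3. The 7 Hox genes left out by the filter on low counts were Hoxa13, Hoxb1, Hoxb13, Hoxd1, Hoxd3, Hoxd12 and Hoxd13. At an unadjusted p under 0.05 edgeR had 9 Hox genes, 4 higher (Hoxa2, Hoxa3, Hoxa5 and Hoxa7) and 5 lower (Hoxb7, Hoxb9, Hoxd9, Hoxd10 and Hoxd11), where 25.0% of all genes passed this limit, so 9 of 32 is near the background. With the strand columns summed, edgeR had 7 at this limit, without Hoxa3 and Hoxa7, and 0 called. DESeq2 called 7 (Hoxa2 and Hoxa5 higher, and Hoxb7, Hoxb9, Hoxd9, Hoxd10 and Hoxd11 lower), where it called 19.0% of all genes with an adjusted p. limma-voom called 1, Hoxd11 lower, where it called 7.32% of all genes. With sex as a covariate, edgeR called Hoxb7 and Hoxb9 lower in TKO (adjusted p = 0.0208 and 0.0282), where it called 2.66% of all genes lower. Without TKO 1, edgeR called Hoxc5 higher (log2 fold change 3.23, adjusted p = 0.0439), where it called 9.61% of all genes higher. With no filter on counts, edgeR called Hoxd11 lower (adjusted p = 0.0122), where it called 1.49% of all genes lower.

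The members nearest to the threshold were Hoxa2 and Hoxd11. Hoxa2, which sets the identity of the second branchial arch, had 6.35, 3.56 and 2.49 CPM in TKO, against 0.546, 0.509 and 1.01 CPM in DKO. The groups did not overlap, and the log2 fold change was 2.58 with an SE of 0.65 (edgeR adjusted p = 0.0607). Hoxd11 had an edgeR adjusted p of 0.0643, Hoxb9 a log2 fold change of -5.42 with an SE of 1.60 (adjusted p = 0.0933) and Hoxd10 one of -5.87 with an SE of 1.78 (adjusted p = 0.0995). Hoxa5, which patterns the lower neck and the lung, had 30.3, 11.7 and 14.3 CPM in TKO, against 7.54, 8.15 and 4.20 CPM in DKO (log2 fold change 1.50, SE 0.52, edgeR adjusted p = 0.131). Hoxa3, a gene of the throat region and its glands, had 17.5, 5.53 and 8.28 CPM in TKO, against 3.13, 4.02 and 4.79 CPM in DKO. For 7 of the 32 genes the groups did not overlap, Hoxa2, Hoxa3 and Hoxa5 being higher in every TKO tumour and Hoxb9, Hoxd4, Hoxd10 and Hoxd11 lower, where 32.9% of all genes tested had groups that did not overlap. The share of Hox genes was thus not above the background. Hoxd4 shares exons with Hoxd3 on its own strand, and only 47.7% of its exon bases are free of other genes. For Hoxa3 72.9% are free, and its separation rests on which reads are counted. With the strand columns summed, Hoxa3 had 566, 145 and 215 counts in TKO and 85, 111 and 118 counts in DKO. At their library sizes, TKO 2 and DKO 3 were then about level.

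Promoter windows of Hoxa2 (chr6:52164782-52165081, minus strand) and Hoxd11 (chr2:74682073-74682372, plus strand; the second of its 2 windows in the table) are shown as those of the members nearest to the threshold, and they are the 2 of the 24 Hox windows that hold the composite Pbx-Hox motif TGATTNAT on either strand. The motif is in capitals, read here from the other strand in both, and the sequences are from RefSeq (GRCm38.p6), 250 bases before to 50 bases after a start.

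Hoxa2: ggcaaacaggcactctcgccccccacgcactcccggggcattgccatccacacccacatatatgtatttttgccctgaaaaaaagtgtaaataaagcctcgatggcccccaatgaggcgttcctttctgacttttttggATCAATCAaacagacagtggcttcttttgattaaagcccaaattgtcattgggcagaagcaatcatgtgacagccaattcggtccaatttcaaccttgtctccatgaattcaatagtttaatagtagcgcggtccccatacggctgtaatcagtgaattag

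Hoxd11: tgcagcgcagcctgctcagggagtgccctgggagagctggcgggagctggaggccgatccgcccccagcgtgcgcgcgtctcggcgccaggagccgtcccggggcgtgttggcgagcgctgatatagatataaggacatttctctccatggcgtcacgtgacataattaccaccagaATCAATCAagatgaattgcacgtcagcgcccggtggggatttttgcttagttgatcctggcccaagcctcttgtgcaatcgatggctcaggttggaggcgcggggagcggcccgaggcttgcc

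Of all 32851 promoter windows, 3.22% hold this motif, which was picked for display after the matches of the Hox windows were seen. A match is a run of letters and not a shown site of binding. Hoxa2 was higher in the TKO tumours and Hoxd11 was at 0 there.

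By cluster, the fold changes ran in different directions. Of the 10 Hoxa genes tested, 9 had a positive log2 fold change (median 1.38), against 2 of 8 for Hoxb (median -1.74), 6 of 9 for Hoxc (median 1.46) and 0 of 5 for Hoxd (median -2.52). The direction of Hoxc depends on the method, since by limma-voom Hoxc9 (-0.0507), Hoxc10 (-1.41) and Hoxc13 (-2.13) were negative. Over all 32 it was 17 positive and 15 negative with a median of 0.35, beside a median of 0.09 over all genes tested, and by limma-voom the median over the 32 was -0.14. Genes of 1 cluster are neighbours and do not vary independently. Paralogues of the same number, which have nearly the same homeodomain and often stand in for each other, parted in direction for 7 of the 10 numbers with 2 or more members tested (4, 5, 6, 7, 9, 10 and 11). At number 9, Hoxa9 and Hoxc9 had log2 fold changes of 1.26 and 1.48, against -5.42 for Hoxb9 and -2.52 for Hoxd9. Hoxa9, which patterns the trunk and acts in blood progenitors, had 67.2, 10.2 and 34.5 CPM in TKO, against 29.3, 17.3 and 0.237 CPM in DKO. Hoxc9, a thoracic gene, had 0.166, 22.5 and 14.8 CPM in TKO, against 8.53, 2.55 and 2.31 CPM in DKO. For both, the groups overlapped. At number 10, Hoxa10 and Hoxc10 had 1.37 and 1.46, against -5.87 for Hoxd10, and at number 11, Hoxa11 and Hoxc11 had 1.48 and 2.32, against the Hoxd11 of TKO at 0 counts. Hoxa11 ran from -3.18 to 10.25 when 1 tumour was left out, and Hoxc9 and Hoxc10 turned negative by limma-voom, as given above. At number 7, Hoxa7 had 1.95 and Hoxb7 -3.14, and at number 5, Hoxa5 had 1.50 and Hoxc5 2.66, against -1.75 for Hoxb5. Hoxb5, a gene of the shoulder level, had 0, 0.481 and 0.610 CPM in TKO, against 0.397, 1.73 and 1.54 CPM in DKO. Hoxc5, a neck and upper thorax gene, had 0.0415, 2.35 and 8.59 CPM in TKO, against 0.595, 0.356 and 0.769 CPM in DKO, with TKO 1 the lowest tumour. At number 4, Hoxa4 had 0.82, against -0.29 for Hoxb4, -1.33 for Hoxc4 and -2.35 for Hoxd4, and at number 6, Hoxa6 had 0.68, against -2.54 for Hoxb6 and -1.15 for Hoxc6. Hoxa4, a neck gene, had 7.72, 2.07 and 2.49 CPM in TKO, against 2.33, 1.48 and 3.14 CPM in DKO. Hoxd4, which also patterns the neck, had 0.623, 0.240 and 0 CPM in TKO, against 0.695, 1.63 and 2.25 CPM in DKO. Hoxb6, a trunk gene, had 0.0831, 3.03 and 1.27 CPM in TKO, against 0.0992, 13.3 and 12.1 CPM in DKO. Hoxa4 ran from -0.0289 to 1.15 and Hoxb4 from -0.88 to 0.62 when 1 tumour was left out, so number 4 parts only in some of these fits. None of these differences between paralogues was tested in itself. For Hoxa9, Hoxc10, Hoxa11, Hoxb4 and Hoxc6 the SE, at 1.30, 1.60, 2.41, 0.99 and 1.18, exceeded the size of the log2 fold change. No share for sets of unrelated genes was computed, so the 7 of 10 is not read as a result about the family.

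**Figure D4:**
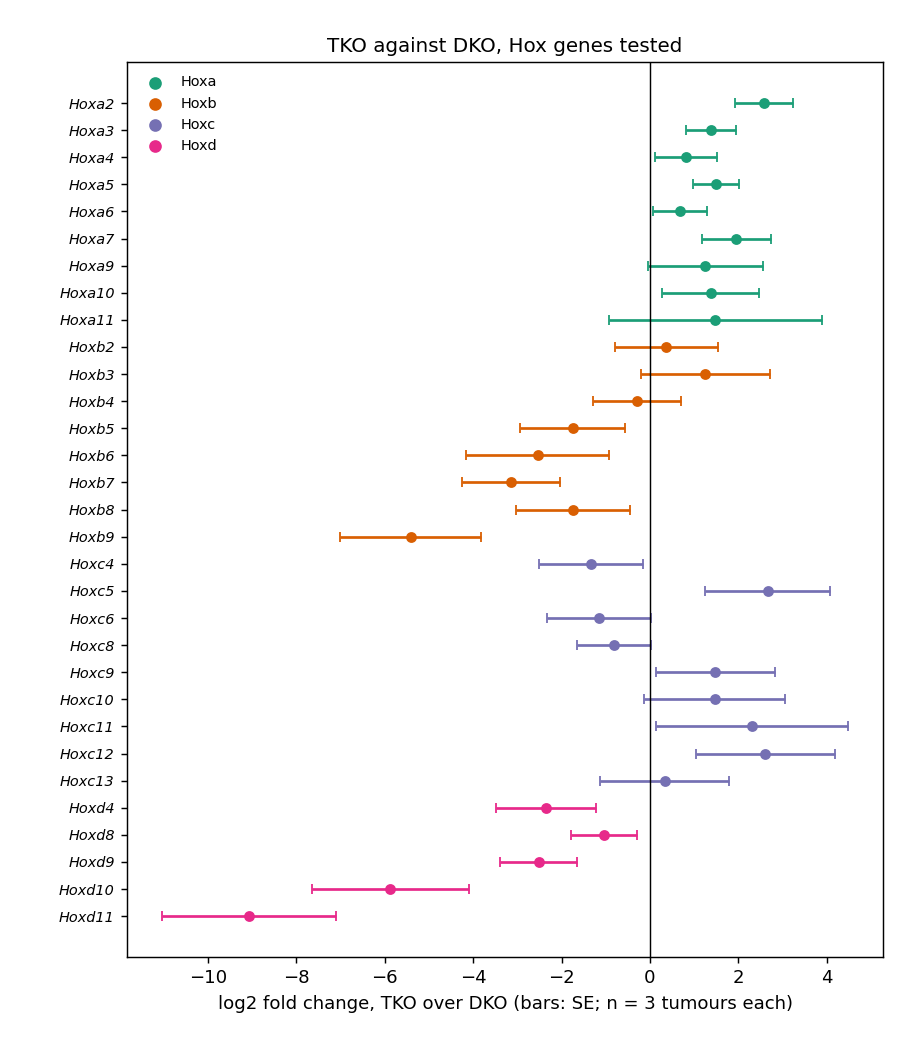
log2 fold change of TKO over DKO (horizontal axis) for the tested Hox genes that are reported, with bars for the SE (n = 3 tumours each), coloured by cluster and ordered by paralogue number down the page. The Hoxa points drawn lie to the right of 0, Hoxd points lie to the left, and 0 of the 32 passed an edgeR adjusted p of 0.05. The Hoxd11 point is a fitted value against a group at 0 and is no bound.

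Summed over clusters, the classes of the code were used in other proportions. Genes numbered 1 to 3 summed to 28.9, 15.9 and 30.7 CPM in TKO, against 5.41, 13.8 and 14.7 CPM in DKO. This class holds Hoxb2 and Hoxb3, whose counts may be too low, and with the strand columns summed it had 65.8, 59.0 and 139 CPM in TKO, against 8.58, 57.1 and 62.1 CPM in DKO, so that DKO 3 lay above TKO 2 and the groups overlapped. Genes numbered 4 to 8 summed to 150, 91.4 and 112 CPM in TKO, against 89.6, 170 and 172 CPM in DKO. Genes numbered 9 to 13 summed to 113, 170 and 147 CPM in TKO, against 114, 78.8 and 81.5 CPM in DKO, and made up 38.6, 61.3 and 50.7% of the Hox level in TKO, against 54.5, 30.0 and 30.3% in DKO. With the strand columns summed these shares were 31.5, 54.2 and 36.35% in TKO, against 53.5, 25.3 and 25.6% in DKO. DKO 1 lay inside the TKO range for this class.

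Levels of Hox genes also spread widely among tumours of 1 genotype. Between the highest and the lowest tumour of a group, the median difference in log2(CPM + 0.5) over the 32 tested members was 1.90 in TKO and 1.81 in DKO, beside medians of 1.04 in TKO and 0.66 in DKO over all genes tested. At least 4-fold apart on this scale were 16 of the 32 members in TKO and 15 in DKO, where 19.4% of all genes were so in TKO and 6.43% in DKO. The genes of this background were not matched to the Hox genes for level. How far low counts widen the Hox ranges was not tested. The widest member was Hoxc10 in TKO, at 6.03, and Hoxa9 in DKO, at 5.34. Over all 39 genes, the Hox profile of TKO 2 was as close to DKO 1 (Pearson r of 0.797 on log2(CPM + 0.5), across genes) as to TKO 3 (0.794) or as DKO 2 was to DKO 3 (0.794). DKO 1 had 0.196 with DKO 3 and 0.555 with DKO 2, while TKO 1 had 0.390 with TKO 2 and 0.557 with TKO 3. The 6 pairs within a group ran from 0.196 to 0.794 and the 9 pairs across groups from 0.122 to 0.797. Over all genes, TKO 2 and DKO 1 had 0.772. These correlations are descriptions across genes of shared libraries.

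Of 3 genes that mark the type of limb, 1 was high in the same tumours as Hoxc11. Pitx1, which specifies the hindlimb, had 0, 8.75 and 19.9 CPM in TKO, against 10.5, 0 and 0.0592 CPM in DKO, and so was high in TKO 2, TKO 3 and DKO 1, the tumours with Hoxc11 and Hotair. Its log2 fold change was 1.43 with an SE of 2.29 (edgeR adjusted p = 0.741). Tbx4, its target in the hindlimb, had 1.62, 1.35 and 0.305 CPM in TKO, against 15.9, 0.102 and 0 CPM in DKO (log2 fold change -2.28, SE 1.97, edgeR adjusted p = 0.511). Tbx5, which specifies the forelimb, had 2, 4 and 1 counts in TKO, against 69, 64 and 5 counts in DKO. All 3 TKO values lay below the DKO values, but the gene did not pass the filter on low counts and was not tested. The separation rests on few counts, with 4 in TKO 2 and 5 in DKO 3 (0.192 and 0.296 CPM). Of all genes tested, 32.9% had groups that did not overlap.

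**Figure D5:**
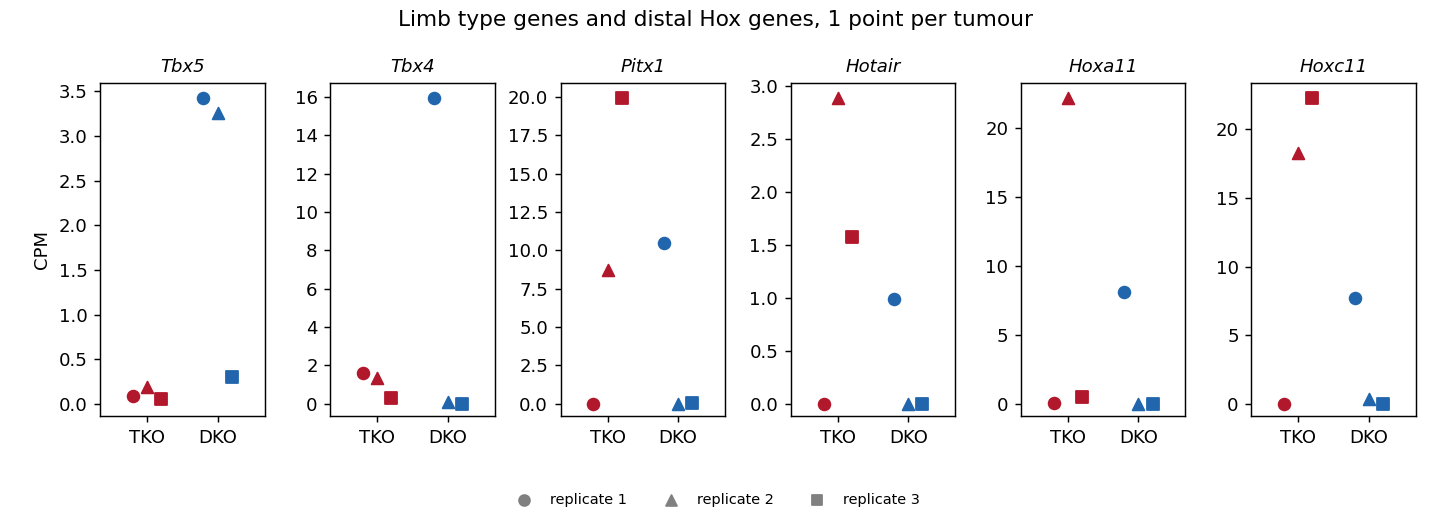
CPM (vertical axes, linear, each with its own range) of 3 limb type genes, the noncoding RNA Hotair and 2 Hox genes in TKO and DKO tumours, 1 point per tumour with the replicate number as its shape. Pitx1, Hotair and Hoxc11 are high in TKO 2, TKO 3 and DKO 1, and Tbx5 is at most 0.192 CPM in TKO.

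Of the other genes of the pathway, few were called. All 9 TALE cofactors that bind DNA with Hox proteins were tested and 0 passed by edgeR (median log2 fold change 0.24), their sum being 201 to 274 CPM in TKO and 231 to 241 CPM in DKO. Of 32 regulators of Hox transcription, 28 were tested, 1 was called higher and 1 lower (median 0.30). Aldh1a1, a retinaldehyde dehydrogenase that makes retinoic acid, had 30.9, 24.7 and 6.55 CPM in TKO, against 2.28, 2.49 and 3.31 CPM in DKO, and rose in TKO with a log2 fold change of 2.94 (SE 0.64, edgeR adjusted p = 0.0421). Of 19 limb position genes, 15 were tested and 1 was called (median 0.57). It was Lhx2, a limb bud gene that answers the apical ridge, with 31.0, 25.8 and 26.8 CPM in TKO, against 4.71, 2.19 and 4.08 CPM in DKO, and a log2 fold change of 2.92 (SE 0.42, edgeR adjusted p = 0.0168). Neither named call held in every fit. Few genes of any kind were called without a DKO tumour, 39, 2 and 0 without DKO 1, 2 and 3. With 1 tumour left out, the log2 fold change stayed between 2.64 and 3.14 for Lhx2 and between 2.53 and 3.37 for Aldh1a1. Lhx2 had an edgeR adjusted p of 0.0627, 0.0695 and 0.0806 without DKO 1, 2 and 3, and stayed under the threshold when each TKO tumour was left out in turn. Aldh1a1 had 0.0999 without TKO 2 and 0.137, 0.158 and 0.139 without DKO 1, 2 and 3. Limma-voom (adjusted p = 0.101), a filter of 1 CPM in a library of each group with edgeR (adjusted p = 0.0738), the replicate block (edgeR adjusted p = 0.134) and sex as a covariate (edgeR adjusted p = 0.0573) also ended the call of Aldh1a1. Of 23 genes of the Hox-free head skeleton 17 were tested, and of 18 reported Hox targets 15 were tested, and 0 passed in either list (medians 1.13 and -0.38). Of the 46 other genes annotated inside the clusters, most of them noncoding, 10 were tested and 0 were called by edgeR, with 1 at an unadjusted p under 0.05. These counts stand beside the 4.89% higher and 2.47% lower of all genes, and nothing particular to the lists is read from them.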

How the data were processed

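Per the labels, RNA from about 100 mg of each tumour was enriched for polyA and sequenced on an Illumina instrument. The authors deposited whole-number counts of reads per gene from STAR, with no normalization. STAR 2.6.1 and mm10 are named per the submitters' processing notes, and which annotation release was counted is not stated in them. The column for both strands was used, since the strand columns hold near-equal counts. Of 56196 IDs, 55240 matched GENCODE M21 (GRCm38), and the 4 lines of unassigned reads were left out. Genes passing filterByExpr (minimum count 10) were scaled by TMM and compared by edgeR's quasi-likelihood test (edgeR 4.0.16, limma 3.58.1, R 4.3.3), TKO over DKO, with Benjamini-Hochberg adjustment over all 15361 genes and a threshold of 0.05. The method was tested on simulated data. CPM uses the TMM-scaled library size, and the SE comes from the fold change and the F statistic. A pseudocount of 0.5 CPM was used on the log scale. A count of 0 was read as up to 3 counts, and intervals are exact at 95% and cover counting error only.

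Alternatives were RLE factors, library totals, other count filters, DESeq2 1.42.0, limma-voom, the replicate number or sex as a term, each strand column, each tumour left out, and other detection limits. The sum of the strand columns was added after seeing the data. Values by tumour are given for members past 0.05, for the top 2 per kilobase of a cluster and group, for the highest paralogue detected and for paralogues that part in direction. Outside the family, genes past 0.05 and Tbx5, Tbx4 and Pitx1 are named. Others (the members near the threshold, those at the steps along Hoxa and Hoxc, and single cell markers) were named after their values were seen. Some genes are not reported here. The members and lists were chosen with earlier results of these data known.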

Additional observations from a re-analysis of the deposited data

How the results depend on the processing

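Of 326 fold changes recomputed for 31 Hox genes under 11 other settings, 307 kept their direction and their side of the threshold, 11 moved past it in the same direction and 8 changed sign. The changes of sign were all in genes far from the threshold. Hoxb4 had 0.51 by limma-voom, 0.33 with the replicate block and 0.37 with sex. Hoxc13 had -2.13, -0.82 and -0.55 under the same 3. By limma-voom, Hoxc9 had -0.0507 and Hoxc10 -1.41. Leaving out 1 tumour gave 6 changes of sign among 186, with ranges of -0.0289 to 1.15 for Hoxa4, -3.18 to 10.25 for Hoxa11, -0.88 to 0.62 for Hoxb4, -0.33 to 0.99 for Hoxb2 and -0.93 to 0.91 for Hoxc13. The causes were not tested.

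Genes called over all genes numbered 158 when 1 CPM was required in a library of each group (fewer genes tested), 2893 by DESeq2 and 295 under the replicate block, beside 1280 with no count filter, 1124 by limma-voom and 1189 with sex, and 0 to 2385 with 1 tumour left out. Hox genes called numbered 1 with no count filter, 7 by DESeq2, 1 by limma-voom, 2 with sex, 0 under the replicate block, and 0 to 1 with 1 tumour left out. The labels state no pairing by replicate number. Same-numbered tumours had correlations of -0.0167 to 0.00889 in their deviations from the group means, and the others -0.00927 to 0.0174. These values cannot show whether tumours are paired, since same-numbered tumours share their sex and the correlations are still near 0. The sum of all Hox genes in TKO 1 was 312 CPM by library totals, where the sums of the groups overlapped. With the strand columns summed, all Hox genes had 358, 343 and 405 CPM in TKO 1, 2 and 3 and 311 and 319 CPM in DKO 2 and 3, Hoxb had 40.4, 63.5 and 146 CPM in TKO, and numbers 1 to 3 had 65.8, 59.0 and 139 CPM in TKO and 57.1 and 62.1 CPM in DKO 2 and 3. Other sums moved by at most the SD of their group. Hox genes detected numbered 15 to 30 at 0.5 CPM and 11 to 24 at 2 CPM, against 14 to 29 at 1 CPM. Depth limits genes at a few counts, such as Hoxd12 and Hoxd3, and p-values with 3 tumours a group rest on the spread among them.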
